A study of Rattus norvegicus with 4 samples.

Results

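The 10 genes described here encode small proteoglycans and matrix proteins of the corneal stroma, the collagenous layer that makes up most of the cornea. They were chosen by name: Dcn, Lum, Kera, Fmod, Ogn, Prelp, Bgn, Omd, Tgfbi and Sparc. All 10 had a row with a value in both tissues, out of 14485 gene names in all, and all 10 reached a value of 1 in eye, the minimum used for the comparison.

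Transcripts were measured by RNA sequencing in 2 groups, eye tissue and retina tissue. The rats were wild type, of the pigmented Long Evans strain. Neither group carried a mutation or had a stated treatment, and no age was stated. The labels list 2 technical replicates per tissue and RNA pooled from 5 rats per library, but 1 column of values was analysed per tissue, so the differences have no replicate check and no p-value. The tissue labels separate eye from retina, while the description field of all 4 samples speaks of retina mRNA. The libraries are named here by tissue. Values are taken as RPKM (reads scaled to gene model length and to the size of the library), a unit inferred from the values, so levels can be compared between genes.

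Small leucine-rich proteoglycans are secreted proteins built around repeats rich in leucine, most of which carry sulfated sugar chains. They bind collagen fibrils and keep their diameter and spacing regular, which the cornea needs in order to be transparent. Decorin and biglycan carry chondroitin or dermatan sulfate, whereas lumican, keratocan, fibromodulin and osteoglycin can carry keratan sulfate. The same genes are known from sclera, tendon, skin, cartilage, bone and vessel walls, so the name of the group does not make them markers of cornea alone.

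Promoter sequences are shown for the genes whose reference window lay wholly before the gene, to set keratocan, the gene nearest to absence in retina, beside genes with more reads in retina. Windows of 250 bases before the start were taken from RefSeq, assembly GRCr8, in which 7 of the 10 genes were matched, and those of Kera, Fmod, Omd and Sparc did not overlap the gene's own span. Capitals mark matches on either strand to the TATA box TATAAA, the CCAAT box, the GC box GGGCGG, the AP-1 element TGACTCA, the Smad-type element CAGACA or the TEAD-type element CATTCC, and no matches overlapped in these windows. The Kera window is chr7:34283850-34284099 on the plus strand, that of Fmod chr13:48045317-48045566 on the plus strand, that of Omd chr17:15274871-15275120 on the minus strand and that of Sparc chr10:40038817-40039066 on the minus strand. All are written 5′ to 3′ on the gene's strand.
Kera: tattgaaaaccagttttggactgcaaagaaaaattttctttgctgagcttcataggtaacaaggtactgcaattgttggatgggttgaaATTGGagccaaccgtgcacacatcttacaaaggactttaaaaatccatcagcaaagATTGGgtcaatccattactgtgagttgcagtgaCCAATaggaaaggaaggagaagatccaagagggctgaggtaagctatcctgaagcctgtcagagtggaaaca
Fmod: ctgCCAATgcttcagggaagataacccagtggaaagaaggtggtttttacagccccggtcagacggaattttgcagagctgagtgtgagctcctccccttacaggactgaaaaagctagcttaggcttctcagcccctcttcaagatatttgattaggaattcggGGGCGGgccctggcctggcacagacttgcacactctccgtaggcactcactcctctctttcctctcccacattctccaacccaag
Omd: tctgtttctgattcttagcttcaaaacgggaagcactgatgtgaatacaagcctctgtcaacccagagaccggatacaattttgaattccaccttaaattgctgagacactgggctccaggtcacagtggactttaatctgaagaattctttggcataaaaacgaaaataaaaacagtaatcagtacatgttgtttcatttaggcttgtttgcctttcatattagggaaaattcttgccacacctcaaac
Sparc: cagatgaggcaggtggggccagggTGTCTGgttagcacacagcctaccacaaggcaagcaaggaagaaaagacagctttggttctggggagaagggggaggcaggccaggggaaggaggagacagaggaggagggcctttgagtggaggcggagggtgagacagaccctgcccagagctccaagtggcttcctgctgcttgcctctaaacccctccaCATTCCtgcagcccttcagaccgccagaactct

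The Kera window held CCAAT 3 times, beginning 161, 105 and 72 bases before the start, the first 2 of them on the opposite strand. Fmod held CCAAT once, 247 bases before the start, and GGGCGG once. Sparc held CAGACA and CATTCC once each, and the Omd window held none of the 6 motifs. Of 33469 reference windows of the same length, 34.0% held the CCAAT box, 30.5% the GC box, 17.2% the Smad-type element, 12.1% the TEAD-type element, 12.9% the TATA box and 4.05% the AP-1 element. The share of G and C was 41.6% for Kera, 38.8% for Omd, 52.8% for Fmod and 60% for Sparc, against a median of 51.2% over all windows. Letters that match a motif describe the sequence and do not show that a factor binds there.

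The comparison of eye with retina gives the levels of these matrix transcripts in the eye library relative to the retina library, not their place in the eye. All 10 genes stood 2-fold or more above retina in the eye library. Of the 13259 genes that reached a value of 1 in eye or retina, 17.8% did so. The fold used for calls was log2((eye + 0.1) / (retina + 0.1)), which understates the difference of low genes. On that scale a fold of 4 was reached by 9 of the 10 (9.07% of all genes). As a plain ratio, without 0.1 added, a fold of 10 was reached by 5 (5.32%) and a fold of 100 by 3 (1.83%). The latter 2 shares include every tested gene at 0 in retina. None was lower in eye, where 7.95% of all genes were. The median log2 fold of the 10 genes was 3.58, and that of all genes -0.01. Folds printed below are plain ratios of the values with an exact 95% interval from recovered reads, which covers counting error only and compares the libraries, not the tissues. Recovered reads are the smallest counts that fit the values, so true reads may be a shared multiple and the intervals narrower. In whole tissue, fewer cells of a type and less RNA per cell cannot be told apart.

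**Figure D1:**
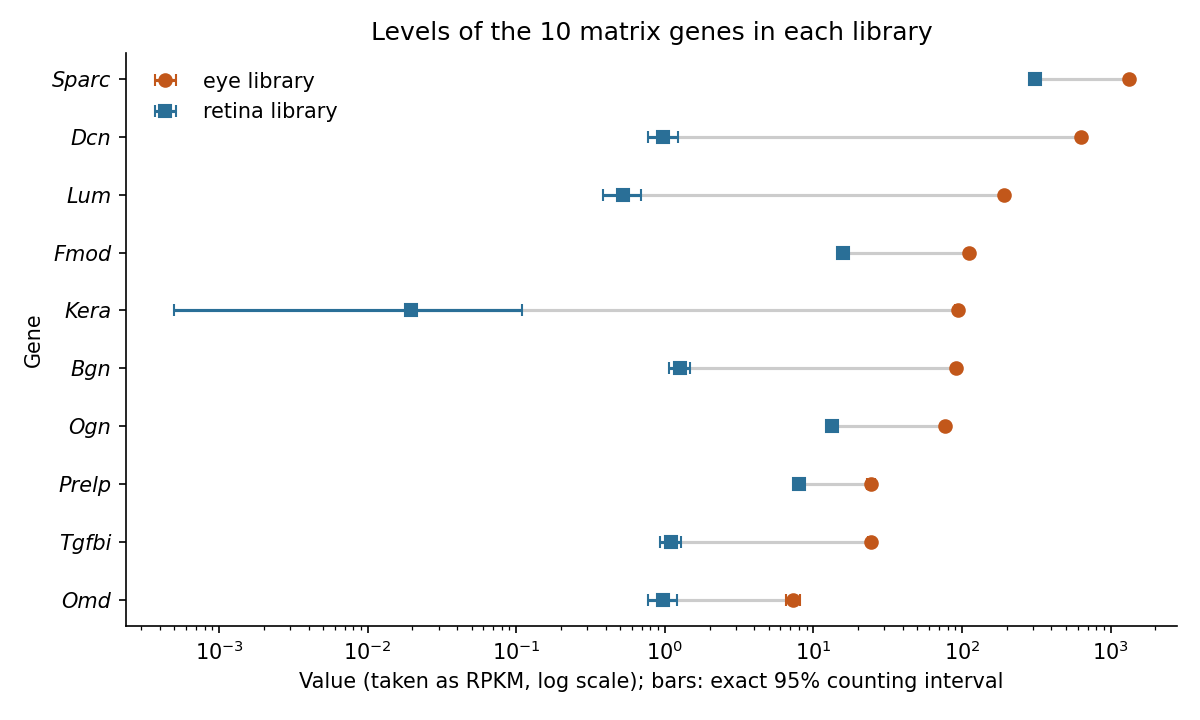
Value of each of the 10 genes (vertical axis, ordered by eye level) in the eye library (circles) and the retina library (squares), on a log axis in units taken as RPKM, with exact 95% counting intervals as bars. All circles lie to the right of their squares, with the gap widest for Kera (93.3 against 0.0195) and narrowest for Prelp (24.5 against 8.02).

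Decorin, lumican and keratocan showed the widest separation of the 10. Dcn (decorin), which binds type I collagen and growth factors of the TGF-beta family, was at 630 in eye (26147 reads) and 0.976 in retina (75 reads). It ranked 41st among all genes in the eye library and 12086th in retina, and was 645-fold higher in eye (interval 514 to 820). Lum (lumican), a main keratan sulfate proteoglycan of the cornea, was at 193 in eye (9368 reads) and 0.524 in retina (47 reads), 369-fold higher (interval 277 to 502). Kera (keratocan), whose expression is largely tied to corneal keratocytes, was at 93.3 in eye and 0.0195 in retina. This was fitted as 1 read, against 2583 in eye, a ratio of 4780 with an interval of 857 to 188857. Its interval did not overlap that of Dcn, but it rests on that smallest fitted count, and a shared multiple would narrow it. When 1 was added in place of 0.1, Kera had a log2 fold of 6.53, below the 8.32 of Dcn and the 6.99 of Lum.

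Biglycan, the closest relative of decorin among the 10, followed. Bgn, which carries chondroitin or dermatan sulfate in skin, bone and vessel walls, was at 91.3 in eye and 1.26 in retina, 72.5-fold higher (interval 61.9 to 85.4). Dcn stood 6.90 times above Bgn in eye, whereas in retina the ratio was 0.775 and the counting intervals of their levels (0.768 to 1.22 for Dcn and 1.07 to 1.47 for Bgn) overlapped. Decorin and biglycan could thus be ordered in eye, but not in retina at this depth.

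Fibromodulin, osteoglycin, osteomodulin and PRELP had much smaller folds. Fmod (fibromodulin), which guides collagen fibril assembly and crosslinking, was at 112 in eye and 15.7 in retina, 7.09-fold higher (interval 6.65 to 7.56). Ogn (osteoglycin, or mimecan) was at 76.7 and 13.4, 5.74-fold higher (interval 5.45 to 6.05). These retina levels rested on 1204 and 1840 reads, so counting error was small. Omd (osteomodulin), known as a keratan sulfate proteoglycan of bone, was the least abundant of the 10 in eye, at 7.28, and at 0.971 in retina, 7.50-fold higher (interval 5.83 to 9.75). Its interval overlapped that of Fmod. Prelp, which anchors basement membranes to connective tissue, was at 24.5 and 8.02, 3.05-fold higher (interval 2.75 to 3.39), the lowest fold of the 10. With both libraries scaled to equal summed values, the log2 fold of Prelp was 0.96 and it was the only one of the 10 not called.

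The reference table places a gene named Cenpp across Ogn and Omd. Strand use in the counting is not stated, so reads of overlapping transcripts could be shared with these 2 genes.

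The remaining members are not proteoglycans. Sparc (osteonectin), a secreted calcium- and collagen-binding protein, was the most abundant of the 10 in both libraries, at 1335 in eye and 310 in retina (76050 and 32692 reads). It ranked 20th in eye and 80th in retina, and was 4.30-fold higher in eye (interval 4.25 to 4.36). Tgfbi, which encodes an adhesive matrix protein abundant in cornea and altered in inherited corneal dystrophies, was at 24.2 in eye and 1.10 in retina, 22.0-fold higher (interval 18.6 to 26.1). Its eye level could not be told from that of Prelp, with which its counting interval overlapped.

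**Figure D2:**
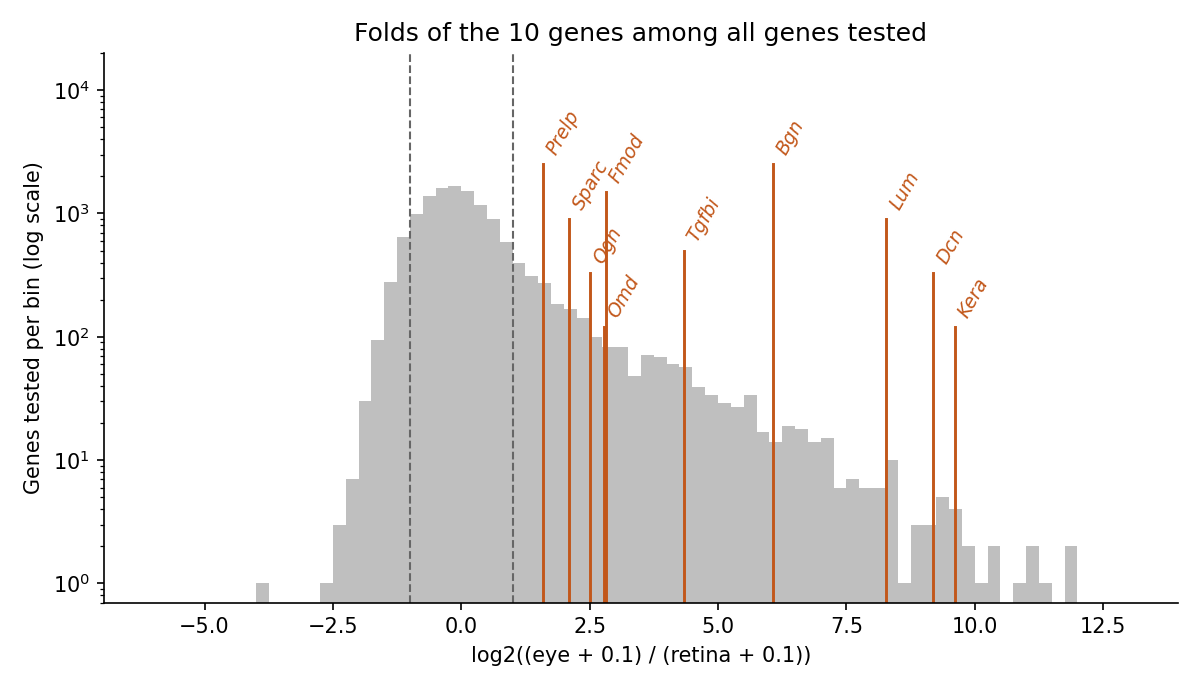
Number of genes per bin of log2 fold (eye over retina, 0.1 added to each value; log count axis) among the 13259 genes tested, with the 10 matrix genes as vertical lines whose heights only separate the labels. Dashed lines mark 2-fold in either direction; the 10 genes lie to the right of the upper one, from 1.60 for Prelp to 9.61 for Kera.

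In the eye library the order of levels was Sparc, Dcn, Lum, Fmod, Kera, Bgn, Ogn, Prelp, Tgfbi and Omd. Neighbours in that order differed beyond counting error except Kera and Bgn, and Prelp and Tgfbi. In retina the order was Sparc, Fmod, Ogn, Prelp, Bgn, Tgfbi, Dcn, Omd, Lum and Kera, in which Bgn and Tgfbi, Tgfbi and Dcn, and Dcn and Omd had overlapping intervals. Dcn held place 2 in eye and 7 in retina and Lum 3 and 9, while Fmod and Ogn held places 2 and 3 in retina. Counting error is the only error measured here, so the spread between animals of such orders is unknown.

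The make-up of the proteoglycan transcripts differed between the 2 libraries by far more than counting error. The 8 small leucine-rich proteoglycan genes among the 10 summed to 1228 in eye and 40.9 in retina, 30.0 times as much, or 0.235% and 0.0122% of all summed values. Dcn alone held 51.3% of that sum in eye and 2.39% in retina, and Lum 15.7% and 1.28%. Dcn, Lum and Kera together held 74.6% in eye and 3.72% in retina. Fmod, Ogn and Prelp together held 17.3% in eye and 90.8% in retina, with Fmod at 38.5%, Ogn at 32.7% and Prelp at 19.6% of the retina sum. Fmod was at 0.177 times the level of Dcn in eye and at 16.1 times in retina. These shares do not depend on how the libraries are scaled to each other.

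**Figure D3:**
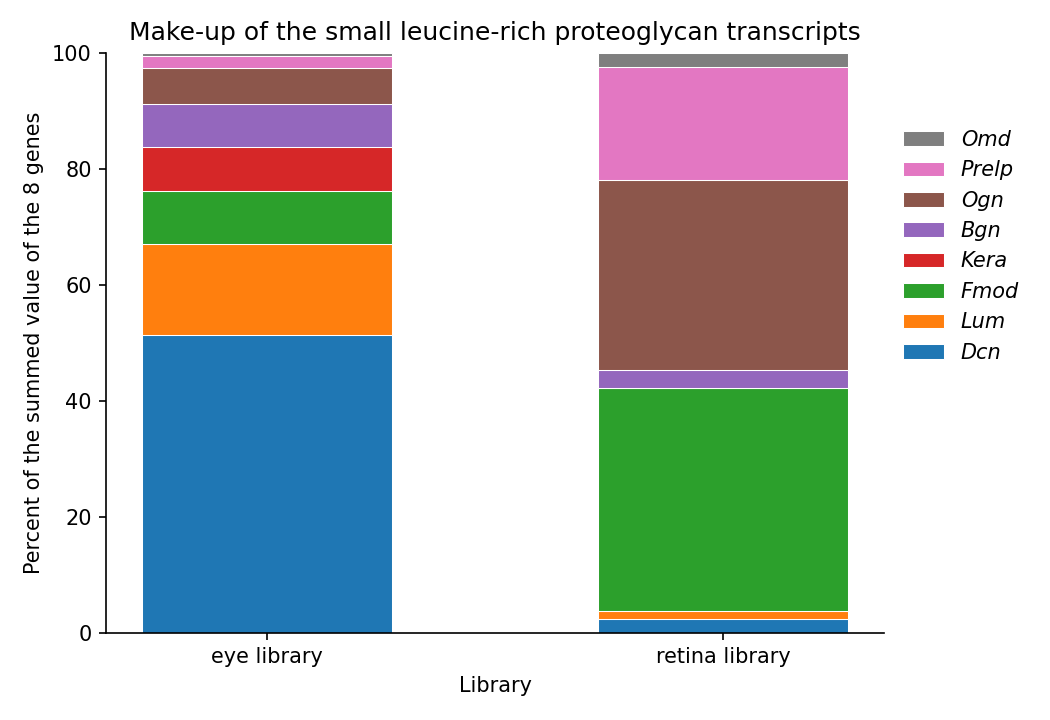
Percent of the summed value of the 8 small leucine-rich proteoglycan genes held by each gene (vertical axis, from 0) in the eye and the retina library. Dcn and Lum make up most of the eye bar (51.3% and 15.7%), and Fmod, Ogn and Prelp most of the retina bar (38.5%, 32.7% and 19.6%).

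Most of the proteoglycan genes stand in tandem in the genome. In the reference gene table, Dcn, Lum, Kera and Epyc stand side by side, as do Optc, Prelp and Fmod, and Ogn, Omd and Aspn. In the first group, Epyc (epiphycan) was at 6.13 in eye (143 reads) and at 0 in retina, at least 88.2-fold higher against a floor of 3 counts in the retina library. The exact interval of its fold, which has no upper end, began lower, at 70.8. Beside it stood the folds of 369 for Lum and 645 for Dcn, and the ratio of Kera, which rests on 1 fitted retina read and whose interval began at 857. In the second, Optc (opticin), a proteoglycan of the vitreous, had its higher level in retina, at 46.1 against 28.9 in eye, 1.60-fold lower in eye (interval of the eye-to-retina ratio 0.582 to 0.672) and short of the 2-fold threshold. Its neighbours Prelp and Fmod had folds of 3.05 and 7.09. Beside Ogn and Omd, Aspn (asporin) was at 10.1 in eye and 0.353 in retina, 28.6-fold higher (interval 19.5 to 43.6), above these neighbours. Retina values at or above 8 occurred in the Optc, Prelp and Fmod group and for Ogn, and the 4 genes of the Dcn group were all below 1 there.

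Markers of other cell types were measured beside the 10 genes, by list. Among all genes tested, 17.8% were higher in eye and 7.95% lower. Summed markers of corneal and conjunctival epithelium (7 of 7 tested higher in eye, Krt12 the largest) were at 2861 in eye and 8.61 in retina, so that retina stood at 0.301% of eye. Skeletal muscle markers (8 of 8) were at 3142 and 13.2, or 0.420%, and lens markers (5 of 5) at 83279 and 586, or 0.704%. The retina value of Kera was 0.0209% of its eye value, that of Dcn 0.155% and that of Lum 0.271%, all below these summed lists. Single markers ranged from Krt12 (0.0412%) to Cdh1 (27.9%) in epithelium and from Myl1 (0.00413%) to Des (1.93%) in muscle. In lens they ranged from Crygd (0.110%) to Mip (1.97%), so the lowest marker of each list lay below Dcn and Lum. Bgn was at 1.38% and Tgfbi at 4.55%. Omd, Fmod, Ogn, Sparc and Prelp were at 13.3%, 14.1%, 17.4%, 23.2% and 32.7%. Markers of smooth muscle and pericytes (5 of 5 higher in eye, summed 207 and 34.8) and of endothelium (5 of 5, summed 63.1 and 10.6), which retinal vessels also hold, were at 16.8% each, and Schwann cell markers (6 of 6, summed 253 and 39.6) at 15.7%. Retinal pigment epithelium markers (3 of 4, summed 1154 and 388) were at 33.6%. Markers of the neural retina lay the other way: rod photoreceptor markers (4 of 6 lower in eye, summed 16641 and 34492) were at 207% and Mueller glia markers (0 of 5 called, summed 646 and 801) at 124%. None of these lists had a member at 0 in retina, and the part of these cell types in the levels of the 10 genes was not tested.

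**Figure D4:**
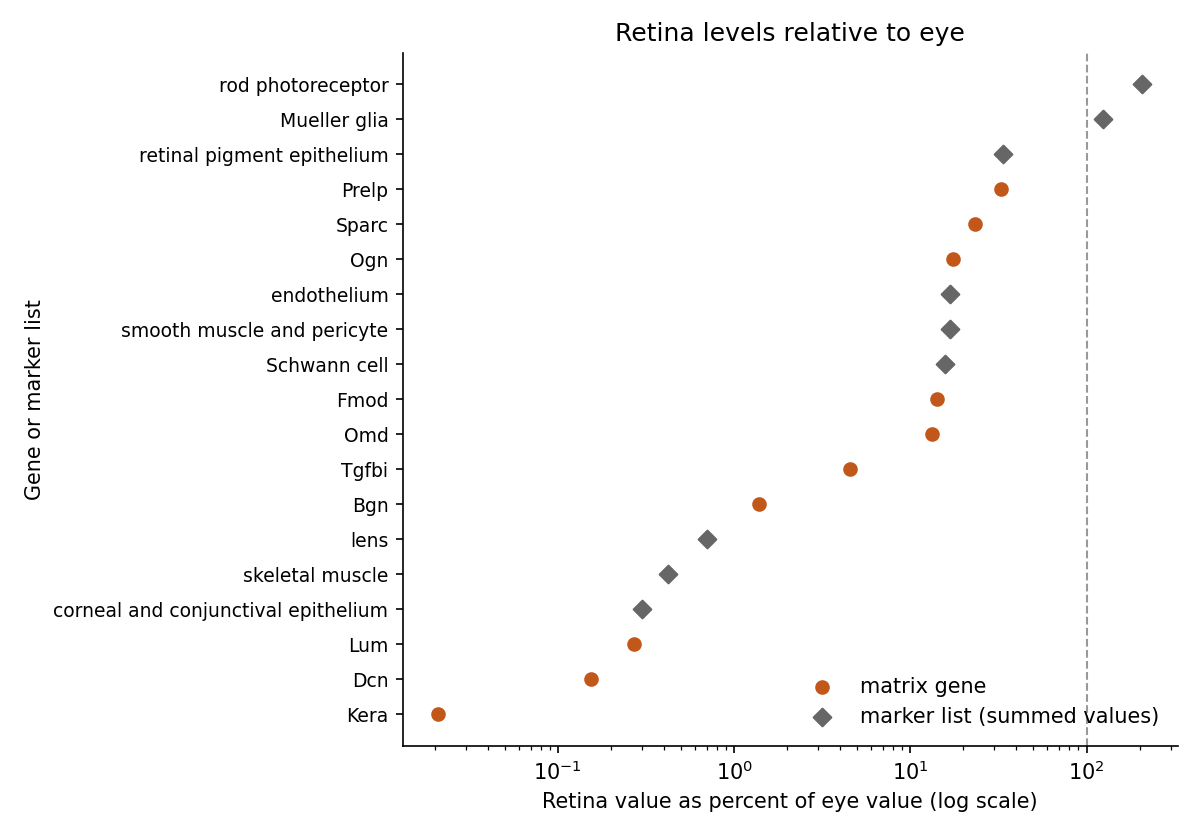
Retina value as a percent of the eye value (log axis; dashed line at 100) for each of the 10 genes (circles) and for summed markers of 9 cell types (diamonds). Kera, Dcn and Lum lie below the summed lens, muscle and corneal epithelium lists, at 0.0209% to 0.271%. Single markers of those lists, some of them lower, are not drawn, nor are the keratocyte, fibroblast and sclera lists. Omd (13.3%) and Fmod (14.1%) lie below the Schwann cell (15.7%) and vessel (16.8% each) lists. Ogn, Sparc and Prelp, at 17.4% to 32.7%, lie between the vessel and pigment epithelium (33.6%) lists.

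The same comparison was made for markers of keratocytes, the resident cells of the corneal stroma. A higher level in eye could not test the label of the group, because skeletal muscle, lens and epithelium markers were higher too. Kera is also itself a member of the group. All 6 markers above the minimum were higher in eye, against 17.8% of all genes, among them Kera, Ptgds (1707 and 270) and Chst5. Another was the corneal aldehyde dehydrogenase Aldh3a1 (1896 and 2.22), also abundant in corneal epithelium. The lowest fold of the list was that of Aldh1a1, at 87.3 in eye and 41.2 in retina, 2.12-fold higher. Of 9 general fibroblast markers 8 were higher, led by Col1a1, and Fbln1 was not called (25.0 in eye and 30.2 in retina). Of 5 tested markers of sclera, cartilage and bone, Chad was higher in eye and Col2a1 lower. Summed by list, retina stood at 8.29% of eye for keratocyte markers, 3.11% for general fibroblast markers and 117% for markers of sclera, cartilage and bone. Ptgds alone supplied 270 of the keratocyte sum of 314 in retina. In the last list, Col9a1 (77.4, not called) and Col2a1 (31.6) supplied most of the retina sum of 122. The retina level of Chad was only 0.107% of its eye level, so the 117% does not stand for each marker. Acan, Comp, Matn1 and Ibsp of that list had no value. Cornea was not sampled apart from the rest of the eye, so corneal stroma, sclera and other connective tissue cannot be told apart as sources of these transcripts.

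The other genes of the matrix pathway were taken from 8 lists with 123 genes, of which 107 reached the minimum value of 1. Of these, 47 (43.9%) were higher in the eye library, against 17.8% of all genes, 6 were lower, against 7.95% of all genes, and 54 were not called. Matrix genes with higher values in retina, among them Optc, Nyx, Chst1, Chst2, Impg1, Impg2 and Xylt1, stand beside the rod markers at 207% of eye, and the part of retinal RNA in their values was not tested. The lists differed widely, with collagens and other small proteoglycans high in eye and the enzymes of the sugar chains mostly not called.

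Of 7 other small leucine-rich proteoglycan genes, 5 were higher in eye, 1 lower and 1 not called, with a median log2 fold of 3.53. The shares of all genes were 17.8% higher and 7.95% lower. Chad (chondroadherin), a protein of cartilage matrix, had a value of 32.5 in eye and of 0.0347 in retina, fitted as 1 read. Its ratio was 938, with an interval of 168 to 37128 that a shared multiple would narrow. Nyx (nyctalopin), which holds the signalling complex of bipolar cells at their synapse, was lower in eye, at 6.65 against 16.5 in retina, 2.49-fold. Epyc, at 0 in retina, counts in the median with its fitted value of 5.96, or 6.46 at its bound, and lies above the median either way.

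Stromal collagens include chains of the fibrils that these proteoglycans coat. They were higher in eye for 13 of 14 genes, against 17.8% of all genes, with a median log2 fold of 3.71. Col1a1 and Col1a2, the chains of type I collagen, were at 532 and 566 in eye and 0.625 and 5.25 in retina, 851-fold and 108-fold higher. Col3a1 was at 162 and 1.03, 158-fold higher. Col5a3, a minor chain of type V collagen, was the exception, with 50.6 in retina and 16.7 in eye, a 3.02-fold lower level in eye. The folds of Dcn and Lum lay between those of Col1a1 and Col3a1, and the interval of Dcn overlapped that of Col1a1 (735 to 991).

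Genes of collagen processing and crosslinking were higher in 9 of 20 cases, 1 was lower and 10 were not called. The shares of all genes were 17.8% higher and 7.95% lower. Pcolce, an enhancer of procollagen cleavage, was at 98.9 in eye and 5.83 in retina, 17.0-fold higher. Serpinh1, the collagen chaperone, was at 136 and 43.9, 3.09-fold higher, and Ppib (cyclophilin B) was at 144 and 85.1 without being called. Adamts3, a procollagen peptidase, was the lower gene, at 3.56 and 10.2.

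The enzymes that build the sugar chains showed no such separation as a list. Of 11 genes of keratan sulfate synthesis 2 were higher and 9 were not called, a share near the 17.8% of all genes, with a median log2 fold of 0.27. Chst5, a sulfotransferase of keratan sulfate, was at 4.12 in eye and 0.377 in retina, 10.9-fold higher (interval 7.75 to 15.7), and B3gnt7, which extends the chain, was the other. Chst2 and Chst1, related sulfotransferases, had their higher values in retina, at 60.6 against 33.6 and 23.8 against 12.5. Papss1 (35.6 and 29.4) and Slc35b2 (20.8 and 19.9), which make and carry the sulfate donor, were not called and changed sign with equal summed values.

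Of 20 genes of chondroitin and dermatan sulfate synthesis 5 were higher, 2 lower and 13 not called, shares near the 17.8% and 7.95% of all genes, with a median log2 fold of -0.21. Dse, the epimerase that turns chondroitin into dermatan sulfate, was at 4.91 in eye and 0.881 in retina, 5.57-fold higher (interval 4.72 to 6.60). The others higher in eye were Chsy3, Dsel, Chst14 and Chst15. Chst14, which sulfates dermatan, and Dsel, a relative of Dse, act in the dermatan branch, as does Ust, which was not called (2.30 in eye and 2.53 in retina). Xylt1, which starts the chains, and Chst3 were lower, 2.03-fold and 2.10-fold, and both lost the call when the totals excluded lens genes or 1 was added. B3gat3 (59.4 in eye and 88.1 in retina), B4galt7 (14.0 and 20.0) and Chpf (35.8 and 35.5) were not called.

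Relatives of Sparc and Tgfbi were divided. Of 9 genes 4 were higher (Fstl1, Postn, Smoc1 and Smoc2), 1 was lower and 4 were not called. Among all genes tested, 17.8% were higher and 7.95% lower. Sparcl1 (hevin), the nearest relative of Sparc, was at 150 in both libraries (ratio interval 0.974 to 1.02), and the sign of its difference turned with every scaling tried except equal summed values. Fstl1 was at 106 and 37.2, 2.84-fold higher, and Smoc2 was 3.88-fold higher. Postn (periostin), a relative of Tgfbi, was at 41.3 and 12.6, 3.28-fold higher. Spock2 was at 47.7 and 82.6 and was not called. Stab2 was lower, at 0.36 and 1.3, a row printed with few decimals and without recovered reads.

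Large and cell-surface proteoglycans were higher in 5 of 14 cases and lower in 0, against 17.8% and 7.95% of all genes. Sdc1 (syndecan-1), a proteoglycan of epithelial cells, was at 99.0 in eye and 0.723 in retina, 137-fold higher (interval 114 to 166). Impg1 and Impg2, proteoglycans of the matrix around photoreceptors, had higher values in retina (81.0 against 42.4, and 117 against 63.4) and were not called. Decorin, biglycan and fibromodulin can bind TGF-beta. Of 12 genes of related ligands, receptors and binding proteins, 4 were higher and 0 lower, against 17.8% and 7.95% of all genes. Tgfb3 was at 32.3 in eye and 5.65 in retina, 5.72-fold higher (interval 5.27 to 6.21), beside Tgfbr2, Tgfbr3 and Ltbp4. Tgfb2 (28.6 and 25.6) and Ltbp3 (21.3 and 17.3) were not called and changed sign with equal summed values.

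**Figure D5:**
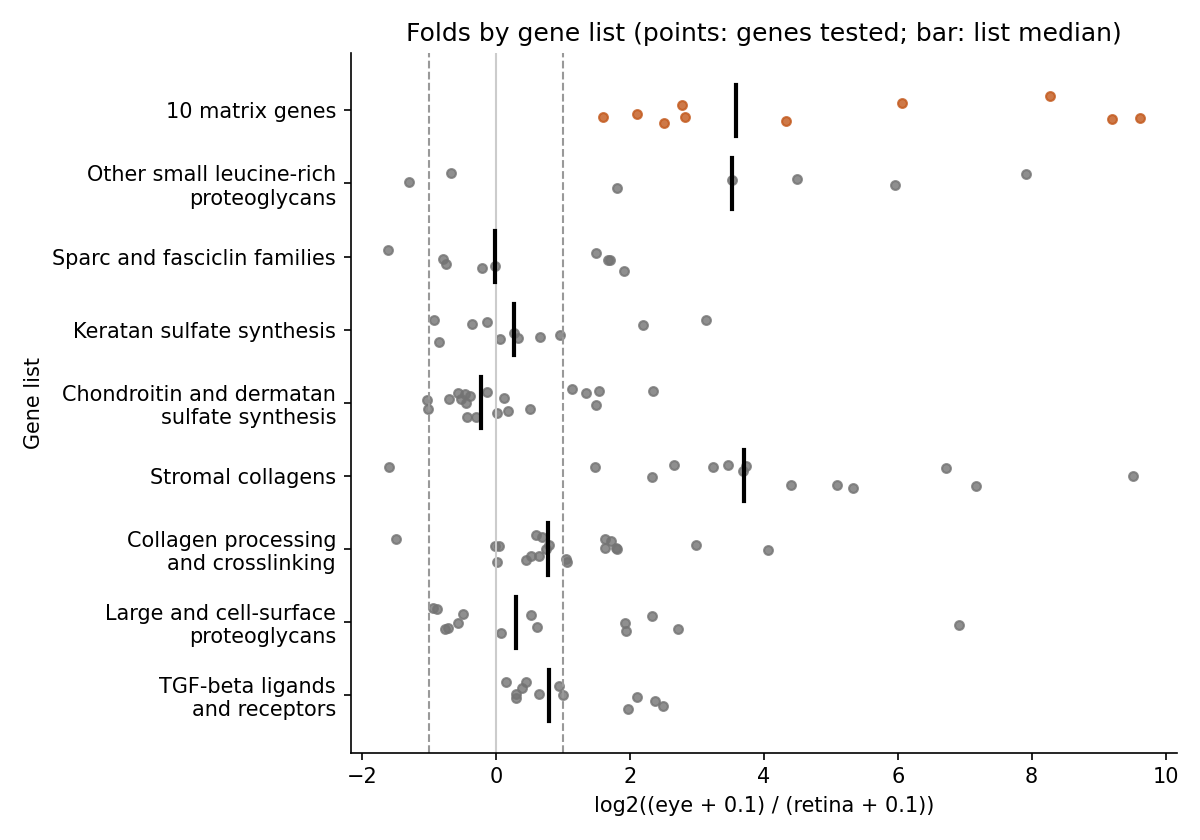
log2 fold (eye over retina, 0.1 added to each value) of each gene tested in the 10 matrix genes and in 8 other matrix lists; black bars are list medians and dashed lines mark 2-fold. The medians are 3.58 for the 10 genes, 3.53 for other small leucine-rich proteoglycans and 3.71 for stromal collagens, and lie between -0.21 and 0.79 for the other 6 lists.

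For each of the 10, the genes with the most similar pair of levels were sought by Euclidean distance of log2(value + 0.1) over the 2 libraries. The search left out the 10 themselves and names made of LOC or RGD and a number. The counts below are therefore not of all genes. Nearest to Dcn was Col1a1 (distance 0.62), nearest to Lum was Aqp5, a water channel (0.33), and nearest to Kera was Aqp3, also a water channel (0.27), then Ckmt2, a muscle creatine kinase. Nearest to Sparc was Ptgds (0.41). Such neighbours were few for Dcn, Kera and Sparc, each with 4 genes within a distance of 1, and for Lum with 7 and Bgn with 13. For Fmod (51), Tgfbi (61), Ogn (109), Omd (231) and Prelp (767) the pattern was common, and the nearest were Igfbp5, Lsp1, Wls, Itgb1bp2 and Ankrd37. With only 2 libraries, this likeness describes levels and nothing more.

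Depth and scaling bear on all of these values. They had been scaled by 28071917 reads in eye and 51944762 in retina, a ratio of 1.85. The 10 genes held 133779 and 36838 recovered reads. Among all genes, 2366 were higher and 1054 lower in eye. The split was 2859 and 561 when the totals excluded lens genes, a shift of 0.19 in log2, and 1363 and 4232 with equal summed values, a shift of -0.64. All 10 genes had their higher value in eye under each scaling tried.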

How the data were processed

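RNA-seq was analysed from 1 column of values for each of 2 tissues, grouped by the tissue in the sample titles. The deposited values are taken as RPKM, a unit inferred from the values. GSNAP, HTSeq and build rn4 are named, per the submitters' processing notes; versions, settings, annotation, strand use and the joining of technical replicates: not given in the sources used here.

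Whole reads were recovered, since a gene's values are whole reads divided by a whole length and a fixed total. Each total was the smallest among those with close to the most votes. Votes came from short genes whose reference span was taken as length (108 of 455 for eye, 104 of 490 for retina). All 13980 genes searched then had whole reads within the printed rounding, as the smallest that fit; true reads may be a shared multiple. Recovery and calls were tested on simulated data.

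Of 14533 rows, 7 had ND and were dropped. Of 41 repeated names the row with more decimals was kept, leaving 14485 names, 401 of them with at most 5 decimals and no recovered reads. Calls needed a value of 1 in eye or retina and a 2-fold difference on the log2(value + 0.1) scale. With 1 library per tissue, no test was made. Intervals are exact: Clopper-Pearson for folds, Poisson for levels, at 95%. They cover counting error only, as PCR copies were not marked.

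The 10 genes, the lists and the alternatives were chosen with earlier results of these data known. Named are all 10 genes, and of each other list the 3 with the highest mean, the highest and lowest fold, and genes called against most of the list; also genome neighbours and the 3 nearest genes by level. Marker lists are given mainly as sums, and not every gene that the rule took is named. Other genes that make up a small count were named once their values were known. Older symbols were matched through the reference table of assembly GRCr8, whose build differs from rn4. Alternatives changed the added value, the minimum, the fold, the scaling, the use of recovered reads and the rows of few decimals. Analyses used Python 3.11.15 with numpy 2.4.6, pandas 2.3.3, scipy 1.17.1 and matplotlib 3.10.9.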

Additional observations from a re-analysis of the deposited data

How the results depend on the processing

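The 10 genes stayed at least 2-fold higher in eye under 9 of 11 alternatives; 9 did at a fold of 4 (without Prelp) and 9 with equal summed values (without Prelp). Their median relative to all genes, 3.59, was 3.18 with 1 added, which shrinks folds of low genes. Their share of summed values, 0.495% in eye and 0.105% in retina, was 0.760% in eye without lens genes, 0.667% and 0.111% as recovered reads, and 0.106% in retina without rows of few decimals. Of all genes, 2366 were higher as reported, 1203 at a fold of 4, 1363 with equal summed values and 1471 with a minimum of 5. Lower were 1054, and 655 with 1 added, 4232 with equal summed values, 12 at a fold of 4 and 561 without lens genes. The 8 other lists had 47 higher genes, and 27 at a fold of 4.

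Single lists moved too. Chondroitin and dermatan sulfate genes had 5 higher and 2 lower, which became 2 and 0 with 1 added, 0 and 1 with a minimum of 5, 1 and 0 at a fold of 4, and 1 and 9 with equal summed values; 0 were lower without lens genes and 1 with the trimmed mean or median of ratios. Keratan sulfate genes had 2 higher and 0 with a minimum of 5, and 2 lower with equal summed values. At a fold of 4, collagen processing had 2 higher in place of 9, the list of Sparc relatives 0 in place of 4 and the large proteoglycans 3 in place of 5, and no list had a lower gene. With equal summed values, collagen processing had 4 higher, and 2 other small proteoglycans, 3 genes of the list of Sparc relatives and 6 large proteoglycans were lower. Stab2 left the lower calls with 1 added, a minimum of 5, recovered reads or without rows of few decimals. The relative median of the other small proteoglycans, 3.54, was 1.57 with 1 added, 4.73 with 0.01 added and 4.82 with recovered reads, and that of the list of Sparc relatives, 0.01, was 0.81 with a minimum of 5, 0.75 with recovered reads and 0.76 without rows of few decimals. The construction of each alternative gives these moves: shrunken folds, fewer genes, a stricter fold or a shifted ratio.

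Each technical replicate could not be left out in turn, since 1 column was analysed per tissue. No paired analysis was possible because the columns carry no replicate number and no test was made. Depth limits the fold of Kera and Chad, each fitted with 1 retina read as the smallest count, and the order of Bgn, Tgfbi, Dcn and Omd in retina.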
